A study of Mus musculus with 6 samples.

Results

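Cultured mast cells labelled Pla2g3-/- were compared with Pla2g3+/+ mast cells, both grown without fibroblasts. The comparison rests on 2 of the 6 arrays of the study, 1 for each genotype, and they were chosen by their sample titles. Both groups were bone marrow-derived mast cells, which are immature mast cells grown in vitro from mouse marrow. They were kept for 4 to 6 weeks in medium with interleukin-3 at 10 ng/ml, after which more than 97% of cells were positive for Kit and FceRIa by flow cytometry. Each array received RNA amplified from 200 ng of a pool of 3 samples, so no group has a replicate. The labels give no strain, age or sex of the mice, no deleted part of Pla2g3, and no promoter or cell type that limits the deletion. The other 4 arrays held mast cells from 4-day cultures on Swiss 3T3 fibroblasts, an established mouse line, with stem cell factor at 100 ng/ml. These were Pla2g3+/+ and Pla2g3-/- mast cells on unedited fibroblasts, and wild-type mast cells on Lpar1+/+ or Lpar1-/- fibroblasts, the latter from single-cell clones edited with Cas9.

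Pla2g3 encodes group III secreted phospholipase A2, an enzyme that releases fatty acids and lysophospholipids from membrane phospholipids outside the cell. Mast cells arise in the marrow, finish their maturation in tissues, and store histamine, heparin and proteases in granules. Mast cells in contact with fibroblasts take on properties of the connective tissue type, and group III phospholipase A2 is known to take part in that step. The comparison without fibroblasts asks how the genotypes differ before that step. Marrow grown in interleukin-3 also holds granulocytes, macrophages and their progenitors in its early weeks, and lists of their markers were therefore examined beside the mast cell genes.

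The level of a gene is given here as the log2 of the signal of its brightest probe minus the 75th percentile of the array. A difference is the level on the array labelled Pla2g3-/- minus that on the Pla2g3+/+ array. The 75th percentile was 1268.32 on the Pla2g3+/+ array and 1230.38 on the array labelled Pla2g3-/-, and 70.66% and 71.29% of spots were well above background. Of 29600 genes on the array, 21758 were compared because they were well above background on at least 1 of these arrays. No p-value is given, since 1 array stood for each group. Differences were instead read against 3 measures of error. The median standard deviation of probes spotted at least 5 times was 0.053 (290 probes) and 0.062 (289 probes) on the log2 scale. The error model of the scanner software put the median error of a difference at 0.204 for the genes named here. Between the arrays of Pla2g3+/+ or wild-type mast cells on unedited fibroblasts, the differences of 20826 genes had a standard deviation of 0.239, 95% of them lay within 0.507, and 0.399% passed 2-fold. None of these is the spread between cultures of 1 genotype, which was not measured.

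Pla2g3 was the first gene examined, because it checks the label, and its signal was higher on the array labelled Pla2g3-/-. The array carried 3 probes for it, all on the plus strand of chromosome 11 in mm9. The first 30 of their 60 bases are shown because the check of the genotype turns on where they bind.
chr11:3393127-3393186: ctgcaagtaacccaggcaatctggagacgc
chr11:3394109-3394168: aggagtaaatgaattaatcaacacacatac
chr11:3399294-3399353: aaatttcaggttgatgccctaaacatttct
The brightest probe, at 3394109, read -6.31 on the Pla2g3+/+ array and 0.51 on the array labelled Pla2g3-/-, a 113-fold difference (26.7-fold with normexp and 58.9-fold with the mean of its probes). The probe at 3393127 was not well above background on the Pla2g3+/+ array and read -4.08 under the label, at least 16.1-fold higher. The probe at 3399294 was likewise not well above background on the Pla2g3+/+ array and read -2.67 under the label, at least 42.8-fold higher. All 3 probes were thus brighter under the Pla2g3-/- label. Inpp5j, a phosphatase gene on the minus strand whose probe (3394386 to 3394445) lies between those of Pla2g3, read -5.71 and -5.58, so the higher signal was not shared by that probe. In coculture the brightest Pla2g3 probe read -7.31 for Pla2g3+/+ and -1.84 under the Pla2g3-/- label, and the wild-type arrays on Lpar1+/+ and Lpar1-/- fibroblasts read -6.58 and -4.85. The probe at 3393127 differed less in coculture. It read -6.60 under the label, at least 2.76-fold higher than Pla2g3+/+, and -7.11 and -7.35 on those wild-type arrays. The probe at 3399294 read -3.51 under the label, at least 23.6-fold higher, and was not well above background on the wild-type arrays. Whether the probes lie in the deleted part is not known, and a probe outside it checks nothing. The arrays titled wild-type, on Lpar1+/+ and Lpar1-/- fibroblasts, read -7.71 and -6.66 for Trim12a and -7.34 and -7.15 for Tescl, 2 genes described below. The Pla2g3+/+ coculture read -7.74 and -7.52 for these genes, and the labelled coculture 0.72 and -1.22. Whether the labels of the genotypes were exchanged was not tested, and if they were, every sign below would turn. Each direction below therefore rests on the label, and the genotype is written as a label.

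The arrays without fibroblasts were close to each other over most genes. Across the 20561 genes well above background on both, the levels correlated with r = 0.9961 (across genes, which are not independent replicates), the standard deviation of the differences was 0.347 and 95% of them lay within 0.553. The median difference of all compared genes was 0.003. At least 2-fold higher under the label were 91 genes (0.418% of those compared), and at least 2-fold lower were 341 (1.57%), so that 21.1% of the genes past 2-fold were higher under the label (with the labels exchanged, the same share would be lower). With normexp background correction, which draws dim probes together, 23 were higher and 94 lower. Of 60 genes past 2-fold that were followed singly, the fold moved by over 1.5 times in 45 with normexp and in 4 with the mean of the detected probes, so the folds of dim genes below depend on the background correction. Of the higher genes 51 were measured on both arrays and 40 were bounds, and of the lower genes 256 were measured and 85 were bounds. At 4-fold, 17 genes were higher and 123 lower, and at 16-fold 6 were higher and 21 lower. Where a called gene had several probes, no other probe went past 2-fold in the opposite direction, and all other probes were past 2-fold the same way in 29 of 55 lower and 6 of 18 higher genes.

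**Figure D1:**
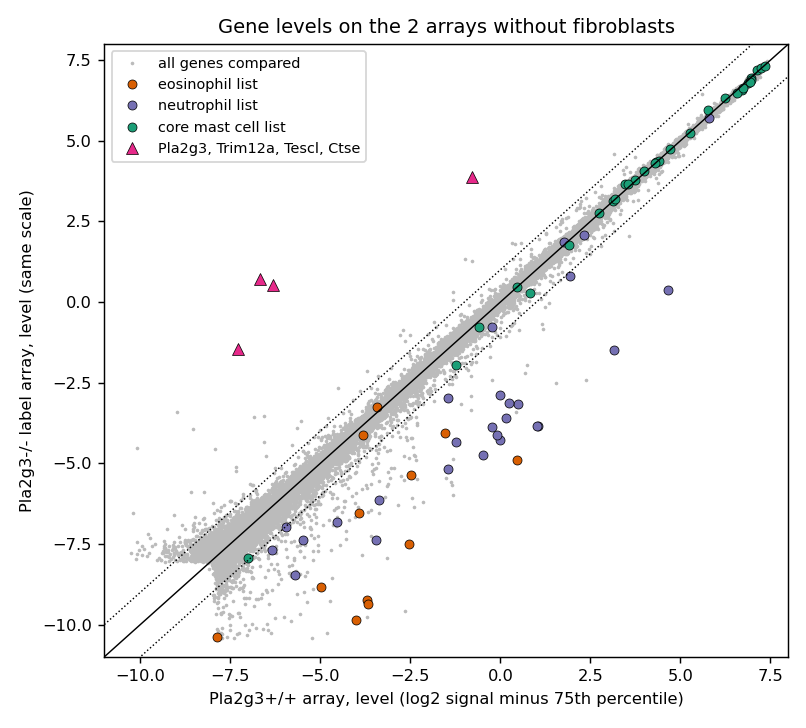
Levels of the 21758 compared genes on the Pla2g3+/+ array (horizontal axis) and the array labelled Pla2g3-/- (vertical axis), both as log2 signal minus the 75th percentile. The solid line marks equal levels and the dotted lines 2-fold. Most eosinophil and neutrophil list genes lie below the lower dotted line, the core mast cell genes lie along the solid line, and Pla2g3, Trim12a, Tescl and Ctse lie above.

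Genes of eosinophil granules were among the lowest under the Pla2g3-/- label. Eosinophils are granulocytes that store cationic proteins and ribonucleases and depend on interleukin-5. Prg2, which encodes the major basic protein of these granules, read 0.45 on the Pla2g3+/+ array and -4.91 under the label, 41.2-fold lower. Ear2, an eosinophil-associated ribonuclease gene, read -2.55 and -7.51, 31.2-fold lower. Epx, the eosinophil peroxidase gene, read -3.70 on the Pla2g3+/+ array and was not well above background under the label, at least 21.3-fold lower. Prg3, a relative of Prg2, was at least 8.68-fold lower, and Ear12, Ear7 and Ear1 at least 21.7-fold, 21.4-fold and 17.2-fold lower. Cebpe, a transcription factor gene of late granulocyte development, read -1.53 and -4.07, 5.83-fold lower. Over all compared genes 1.57% were lower and 0.418% higher. Of the 12 eosinophil list genes compared, 9 were lower and 0 higher, with a median difference of -2.997. All 12 were well above background on the Pla2g3+/+ array and 7 were on the other, where Epx, Prg3, Ear1, Ear12 and Alox15 were not. Those 5 were compared only through the Pla2g3+/+ array. Where both arrays had to be well above background, 5 genes were lower and 0 higher, with a median of -2.62. With normexp the median was -1.30, and Prg2 was 19.1-fold, Ear2 4.03-fold and Epx at least 2.54-fold lower. The receptor genes Il5ra (-3.43 and -3.26) and Ccr3 (-3.82 and -4.14) and the lipoxygenase gene Alox15 (a bound of -0.25 on the log2 scale) were within 2-fold. Ribonuclease genes of the Ear family are near-identical in sequence, so which member gave a signal is uncertain.

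Neutrophil genes were lower in a block that held genes of early and middle granules. Neutrophils carry microbicidal granules made in successive stages, and Mpo and Prtn3 mark the early and Ltf, Camp, Ngp and Lcn2 the middle ones. Camp, the cathelicidin gene, read 1.05 on the Pla2g3+/+ array and -3.83 under the label, 29.4-fold lower. S100a8 and S100a9 encode the subunits of calprotectin. S100a8 read 3.15 and -1.49, 25.0-fold lower, and S100a9 read 4.65 and 0.38, 19.3-fold lower. Mpo, the myeloperoxidase gene, was 19.3-fold lower, the lactoferrin gene Ltf and the granule gene Ngp each 12.6-fold, and Lcn2, a binder of bacterial iron carriers, 7.25-fold. The chitinase-like gene Chil3 was 16.5-fold lower and the haptoglobin gene Hp 13.1-fold. Among surface molecules of the neutrophil, the receptor gene Cxcr2 differed by -1.02 on the log2 scale and Cd177 by -1.37. Against 1.57% lower and 0.418% higher over all compared genes, 23 of 27 neutrophil list genes compared were lower and 0 higher. Their median was -3.10, and 4 were within 2-fold. Those 4 were Elane, the elastase gene (-0.24 and -0.77), Csf3r, the receptor for granulocyte colony-stimulating factor (5.80 and 5.71), Ltb4r1, a leukotriene B4 receptor gene (a difference of -0.24), and Ly6g (0.095). The stefin genes Stfa1 (28.6-fold lower), Stfa3 (19.3-fold) and Stfa2l1 (13.5-fold) are near-identical relatives, and the member is again uncertain.

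The first bases of probes of these genes, and of the leading higher genes described further on, are shown so that the signals can be traced to the molecules measured. Each is the first 30 of 60 bases, with mm9 coordinates as in the files.
Prg2, chr2:84822799-84822858, plus strand: tgttaacttcggaatccagtccgctgtcag
Ear2, chr14:44681119-44681178, plus strand: gtcctcgtgaaacctgtcacttactccctt
S100a8, chr3:90473778-90473837, plus strand: cttgttcagagaattggacatcaatagtga
Trim12a, chr7:111448499-111448558, minus strand: catagctaagggctgtcacttacatcaggt
Tescl, chr7:25118115-25118174, minus strand: gcagactcttgcagcagctacagggtacat
Ctse, chr1:133571990-133572049, plus strand: gacctgtttttacagttggtttatttgtat

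Because the neutrophil granule genes differed together, the bases before their starts were searched for the core of sites bound by C/EBP factors, which drive granulocyte genes. The core was written TTGCNNAA and read on both strands, over the 250 bases before the start in the promoter table of RefSeq (build GRCm38.p6, which is not the build of the probes). It was present in 9 of 22 lower neutrophil list genes with an entry (40.9%). It was present in 18.5% of 249 lower genes with an entry, in 9.71% of 13704 compared genes and in 10.8% of all 27025 genes of the table. A GATA core, AGATAA on both strands, was present in 31.8% of the same 22 genes, 16.1% of the lower, 8.87% of the compared and 11.4% of all genes. Of 6 lower eosinophil list genes with an entry, 3 held the C/EBP core and 0 the GATA core. A match is a run of letters and not a measured binding site, and these counts were not tested. The lower genes were picked from these same data, and near-identical relatives such as the stefin genes each count once. The windows of 3 granule genes are shown, with the C/EBP core in capitals, because they were among the lower genes that hold it. Ngp holds it at 2 places.
Ngp, chr9:110419558-110419807, plus strand: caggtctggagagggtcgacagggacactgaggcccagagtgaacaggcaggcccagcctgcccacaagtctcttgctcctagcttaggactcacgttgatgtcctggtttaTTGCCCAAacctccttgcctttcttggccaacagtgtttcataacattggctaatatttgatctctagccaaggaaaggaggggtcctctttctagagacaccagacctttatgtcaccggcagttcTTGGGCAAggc
Ltf, chr9:111019042-111019291, plus strand: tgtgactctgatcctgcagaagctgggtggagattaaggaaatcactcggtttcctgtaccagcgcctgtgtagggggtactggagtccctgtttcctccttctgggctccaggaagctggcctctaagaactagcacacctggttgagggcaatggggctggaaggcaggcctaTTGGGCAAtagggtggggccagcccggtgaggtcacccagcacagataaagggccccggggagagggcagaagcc
Lcn2, chr2:32387740-32387989, minus strand: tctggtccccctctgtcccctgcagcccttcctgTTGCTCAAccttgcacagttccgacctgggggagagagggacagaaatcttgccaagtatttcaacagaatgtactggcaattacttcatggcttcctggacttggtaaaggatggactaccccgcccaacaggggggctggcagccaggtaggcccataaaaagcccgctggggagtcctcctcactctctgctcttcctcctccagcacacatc
The genes shown differed by -3.65 (Ngp), -3.66 (Ltf) and -2.86 (Lcn2) on the log2 scale. The windows of Camp, S100a8 and Mpo, which were also lower, held no match.

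Platelet chemokine genes were lower under the label, and 19 of 23 genes of the platelet and megakaryocyte list were within 2-fold. Ppbp and Pf4 encode chemokines known from platelet granules. Pf4 read 2.38 on the Pla2g3+/+ array and -2.41 under the label, 27.7-fold lower, and Ppbp read -2.65 and not well above background, at least 43.9-fold lower. Thbs1, a matrix glycoprotein gene also made by other cells, read -1.52 and -5.46, 15.4-fold lower, and Treml1 was 2.29-fold lower (-0.32 on the log2 scale with normexp). Ppbp was at least 4.17-fold and Thbs1 6.07-fold lower with normexp. Of 23 platelet and megakaryocyte list genes, these 4 were lower, 0 were higher and the median was -0.12. The shares over all compared genes were 1.57% lower and 0.418% higher. The glycoprotein genes Gp1ba (0.11), Gp5 (-0.02) and Gp9 (0.16), the integrin gene Itga2b (0.02) and Vwf (-0.003) were within 2-fold on the log2 scale.

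Some macrophage genes were lower under the label, and most of the list was within 2-fold. Mpeg1, which encodes a pore-forming protein of phagocytes, read -2.40 and -4.76, 5.13-fold lower, and was 2.45-fold lower with the mean of its probes and 2.89-fold with normexp. The mannose receptor gene Mrc1 was 3.81-fold lower, and the lysozyme genes Lyz1 and Lyz2, which are close relatives, 3.57-fold and 3.37-fold lower. Of 24 macrophage and dendritic list genes 8 were lower and 0 higher, with a median of -0.46. The lineage receptor genes Csf1r (-0.72), Adgre1 (-0.28) and Cx3cr1 (-0.11), and Cd68 (-0.16), stayed within 2-fold, and 7 further members, among them C1qa, Cd163 and Mertk, were not well above background on either array. MHC class II genes were lower in 1 of 10 (H2-Eb1, 2.01-fold), with a median of -0.32. Among erythroid genes Hbb-b1 was at least 7.36-fold and Ahsp at least 2.32-fold lower, 2 of 12, with a median of -0.12. Of 13 lymphoid genes 0 passed 2-fold (median -0.10), and of 15 progenitor genes Irf8 (5.45-fold) and Cebpa (2.86-fold), transcription factor genes of monocyte and granulocyte precursors, were lower (median -0.05). These counts stand beside 1.57% lower and 0.418% higher over all compared genes, and 0 of 13 is near those shares. With normexp Mrc1, H2-Eb1, Hbb-b1, Ahsp, Irf8 and Cebpa were within 2-fold, at -0.835 to -0.139.

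The levels of these lists were summed over their members on the linear scale, in multiples of the 75th percentile, to show how much of their signal each array held. The eosinophil sum was 2.55 on the Pla2g3+/+ array, 0.302 under the label and 0.899 to 1.16 on the cocultures. On the cocultures Prg2 read -3.66 or less, and Ear2 and Epx were not well above background. Most of the eosinophil sum there thus came from other members of the list. The neutrophil sum was 116.4 on the Pla2g3+/+ array, 65.4 under the label and 67.3 to 85.6 on the cocultures. A sum weighs its brightest members most, and Csf3r alone was 47.8% of the neutrophil sum on the Pla2g3+/+ array and 80.3% under the label. Without Csf3r the neutrophil sum was 60.8 and 12.9, and 15.5 to 32.9 on the cocultures. The macrophage and dendritic sum was 66.9 and 57.4, and the platelet sum 171.7 and 159.3. The core mast cell sum was 1591 and 1562. The Pla2g3+/+ array without fibroblasts was the highest of all 6 arrays in 13.3% of compared genes and in 174 (51%) of the 341 lower ones. It was the highest in all 9 lower eosinophil genes and in 22 of the 23 lower neutrophil genes, Anxa1 being the other one. It was the highest in 2 of 4 lower platelet genes, 1 of 8 lower macrophage genes and 0 of 2 lower basophil genes. The lower genes were chosen for a high level on this array against its partner, so larger shares than over all genes are built in and these counts are a description. Fewer cells of a type and less RNA per cell cannot be told apart in these pools, and the part of such cells in the differences was not tested. The lists of other blood cells held 49 of the 341 lower genes, and 292 lower genes were in none of them.

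**Figure D2:**
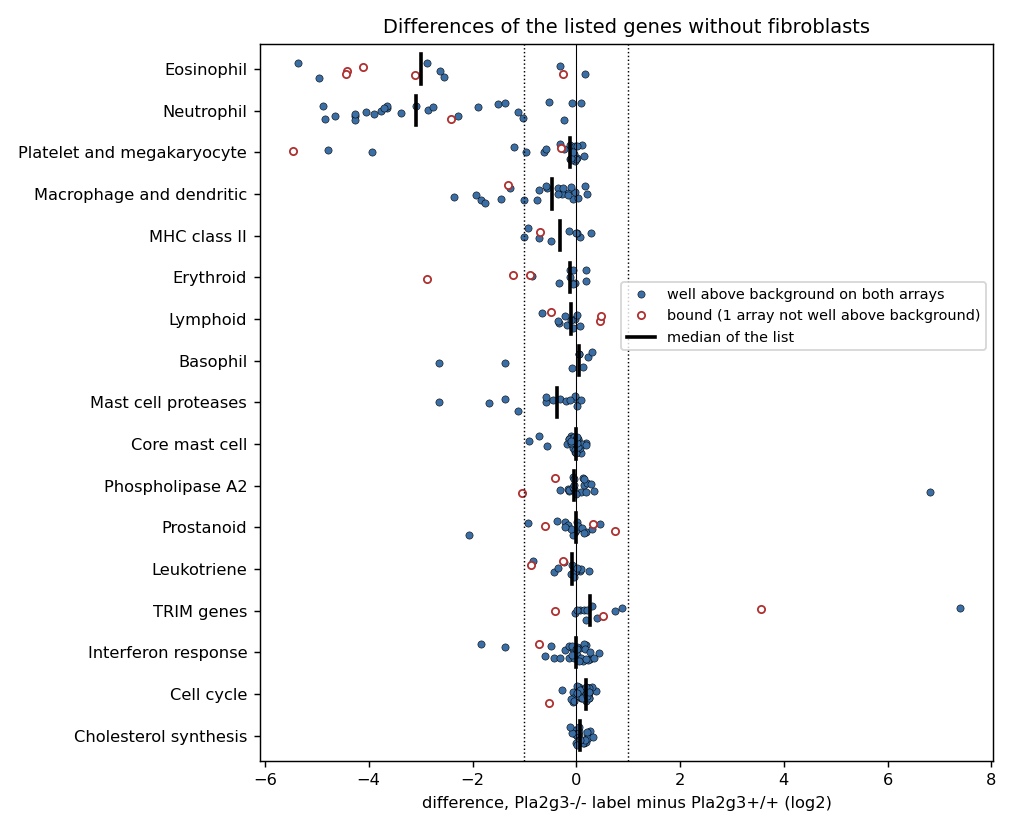
Differences of the members of 17 gene lists without fibroblasts, array labelled Pla2g3-/- minus Pla2g3+/+, on the log2 scale. Each point is 1 gene, filled where both arrays were well above background and open where the value is a bound, and the bar is the median of the list. The eosinophil and neutrophil medians lie near -3, and those of the other lists shown lie between the dotted 2-fold lines.

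Mast cell identity genes stayed within 2-fold between the arrays. Kit, the receptor for stem cell factor, read 6.72 on the Pla2g3+/+ array and 6.58 under the label. Fcer1a, the IgE-binding chain of the high-affinity IgE receptor, read 6.58 and 6.48, and its beta chain gene Ms4a2 read 3.47 and 3.66. The transcription factor genes Gata2 (5.25 and 5.25), Gata1 (4.71 and 4.75) and Mitf (3.99 and 4.06) differed by less than the spot error. Of 30 core mast cell genes compared 0 passed 2-fold in either direction, the median difference was -0.01 and the range -0.92 to 0.19. Of all compared genes 0.418% were higher and 1.57% lower, so 0 of 30 is near the share over all genes. The lowest were Hnmt (-0.92), which inactivates histamine, Rgs13 (-0.72), a regulator of G protein signalling, and Hdc (-0.57), which makes histamine. Hdc read 0.83 and 0.26, 1.48-fold lower, a difference beyond 95% of those between the wild-type cocultures. The defining markers of mast cells were thus well above background on both arrays.

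Granule protease genes split into a group within 2-fold and a group that was lower under the label. The carboxypeptidase gene Cpa3 (6.96 and 6.94), the chymase gene Cma1 (6.09 and 6.09) and Mcpt4 (2.51 and 2.31) were within 2-fold. Tpsab1, a tryptase gene of connective tissue mast cells, read -3.50 and -5.18, 3.20-fold lower. Tpsg1, the gene of a membrane-bound tryptase, read -0.81 and -1.93, 2.18-fold lower, and Tpsb2 read 3.33 and 2.74, 1.51-fold lower. Mcpt8 and Prss34, proteases known from basophils, were 2.61-fold and 6.22-fold lower. Of 14 protease genes 4 were lower and 0 higher, with a median of -0.38, against a median of 0.003 over all genes. The shares over all compared genes were 1.57% lower and 0.418% higher. Prss34, Tpsab1 and Tpsg1 lie near each other on chromosome 17, and a probe for a tryptase or Mcpt gene may bind a close relative. With normexp background correction Tpsab1 (-0.86) and Tpsg1 (-0.999) no longer passed 2-fold. Apart from these proteases, the basophil list did not differ past 2-fold: Il4 (0.31), Il13 (0.12), Cd200r3 (0.22) and Cyp11a1 (0.05) were among the 6 of 8 members within it.

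Of the 10 connective tissue mast cell genes compared, Tpsab1 alone was lower, 0 were higher and the median was -0.21. Over all compared genes 1.57% were lower and 0.418% higher. Hpgds, the hematopoietic prostaglandin D synthase gene, read 0.45 and 0.46. Mrgprb2, a receptor for cationic secretagogues, read -3.75 and -4.24, and Mrgprb1 was not well above background on either array. The 4 Mrgprb receptor genes compared had a median of -0.21 and 0 past 2-fold, a count near the shares over all genes. In the Pla2g3+/+ coculture Tpsab1 read 4.21 and Mrgprb2 2.70, above their levels on both arrays without fibroblasts.

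Other phospholipase A2 genes did not follow Pla2g3. Of 21 genes of the list compared, Pla2g3 was higher, Pla2g10 was lower (-7.01 on the Pla2g3+/+ array and not well above background under the label, at least 2.06-fold) and 19 were within 2-fold, with a median of -0.04. Over all compared genes 0.418% were higher and 1.57% lower. Pla2g10 was within 2-fold with normexp (-0.098) and with quantile normalization (-0.998). The cytosolic enzyme gene Pla2g4a, which supplies arachidonic acid for eicosanoids, read 1.85 and 1.54. The calcium-independent Pla2g6 read -1.71 and -1.56, the lysosomal Pla2g15 0.04 and 0.20, and Pla2g7, which degrades platelet-activating factor, 3.36 and 3.49. Of the secreted forms, Pla2g12a read -2.02 and -2.08, Pla2g2d -5.32 and -5.47, Pla2g2f -5.88 and -6.02 and Pla2g1b -6.65 and -6.82. Pla2g2e was not well above background under the label, with a bound of -0.41. The other differences in the list lay between -0.07 and 0.34, the latter for Pla2g4e, which was dim on both arrays.

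The genes that act on the products of phospholipase A2 differed little. Of 21 prostanoid genes 1 was lower, Hpgd, which inactivates prostaglandins, at -2.44 and -4.50 (4.18-fold), and the median was -0.003. Of 15 leukotriene genes 0 passed 2-fold (median -0.08), and of 12 genes of lysophosphatidic acid synthesis and signalling 0 passed it, with a median of 0.02 and a range of -0.15 to 0.52. Those counts of 0 are near the shares of all compared genes, 0.418% higher and 1.57% lower.

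Programmes of growth and stimulation were also close. Cell cycle genes had a median of 0.18 with 0 of 37 past 2-fold, and cholesterol synthesis genes a median of 0.06 with 0 of 22. Unfolded protein and amino acid response genes had a median of -0.07 with 0 of 20. Since 0.418% of all compared genes were higher and 1.57% lower, counts of 0 in lists of this size are near the share over all genes. Immediate early genes encode the first transcripts made after a stimulus. Of 29 compared, Fos was higher, at 0.41 on the Pla2g3+/+ array and 1.78 under the label (2.59-fold), and the median was 0.03. Of 33 interferon response genes Cxcl10 (3.57-fold) and Oas2 (2.60-fold) were lower (median -0.005). Of 26 cytokine and chemokine genes Cxcl10, Cxcl3 (at least 3.16-fold) and Il5 (2.44-fold), the eosinophil growth factor gene, were lower (median -0.04). The median of 23 integrin and adhesion genes was -0.08 and 0 were higher, and Itgb5 (at least 5.03-fold) and Cd24a (2.88-fold) were lower. With normexp Cxcl10, Cxcl3, Il5, Oas2 and Itgb5 were within 2-fold, at -0.731 to -0.275. Of 16 fibroblast genes 7 were compared and 0 passed 2-fold (median -0.26), and Col3a1, Dcn, Lum and Pdgfra were not well above background on either array.

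The genes that were higher under the label belonged to no single list, and 5 of the 91 were in any list. Trim12a, of a family of restriction factors, had the largest difference of all: it read -6.67 on the Pla2g3+/+ array and 0.73 under the label, 169-fold higher, and its second probe was 16.8-fold higher. Its relative and neighbour Trim5 was not well above background on the Pla2g3+/+ array and read -4.53 under the label, at least 11.8-fold higher. Trim6 (0.89), Trim34a (0.74) and Trim12c (0.06) of the same family were within 2-fold, 2 of 14 Trim genes were higher and 0 lower, and the median of the list was 0.25. The shares over all compared genes were 0.418% higher and 1.57% lower. A probe for one Trim gene may bind a relative. Tescl, named for its likeness to the calcium-binding protein tescalcin, read -7.28 and -1.46, 56.7-fold higher, and its second probe was 44.6-fold higher. Ctse, the gene of the aspartic protease cathepsin E, read -0.79 and 3.87, 25.3-fold higher. Among the other 14 cathepsin genes 0 were higher and 3 were lower, Ctsh (4.85-fold), Ctss (2.75-fold) and Ctsl (2.11-fold), with a median of -0.03 over all 15. Ppm1n, a phosphatase gene, was at least 17.6-fold higher, 4930557J02Rik at least 25.7-fold and Fbxo41 at least 10.4-fold. Cyp4f13, a fatty acid hydroxylase gene, read -0.97 and 1.33, 4.93-fold higher, and its relative Cyp4f17 was 3.05-fold higher. Dnah8, an axonemal dynein gene, was 4.16-fold, Fnbp1l 8.25-fold, D4Ertd617e 9.79-fold and Ramp1, a subunit of receptors for calcitonin family peptides, 3.62-fold higher. With normexp Trim12a was 29.9-fold, Tescl 8.42-fold, Ppm1n at least 2.15-fold, 4930557J02Rik at least 2.77-fold, D4Ertd617e 2.56-fold and Fnbp1l 2.23-fold higher. With normexp the differences of Trim5 (0.99), Fbxo41 (0.87) and Ctsl (-0.93) were within 2-fold. Gm3667 (4.71-fold), Gm3752 (4.69-fold) and ENSMUST00000165619.7 (4.27-fold) were also among the 12 highest. They were within 2-fold with normexp, at 0.848, 0.569 and 0.450.

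Several of the remaining lowest genes were in no list. Mogat2, a monoacylglycerol acyltransferase gene, read -3.15 and -7.92, 27.3-fold lower. Wfdc21 was 25.2-fold lower, and F10, the gene of coagulation factor X, which macrophages also make, read -1.35 and -5.67, 19.9-fold lower. With normexp Mogat2 was 3.06-fold, Wfdc21 7.64-fold and F10 6.25-fold lower. Fpr1 and Fpr2, receptors for formylated peptides on phagocytes, were 4.08-fold and 9.04-fold lower. They are named here after their values were seen.

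In coculture the same labels were compared on arrays that share none with the pair without fibroblasts, and more genes differed there. Of 21096 genes compared in both, 1993 were at least 2-fold higher (9.45%) and 2078 lower (9.85%) under the label in coculture. Of the 83 higher genes without fibroblasts that could be compared, 36 were also higher in coculture (43.4% of these and 1.81% of the coculture genes). Of the 294 lower ones, 137 were also lower (46.6% and 6.59%). In the opposite direction, 7 higher genes were lower and 17 lower genes were higher in coculture. Of the 17 genes at least 4-fold higher without fibroblasts, 12 were higher in coculture, and of 103 at least 4-fold lower, 64 were lower. The arrays without fibroblasts lay on one slide and the cocultures on another, so slide, stem cell factor and fibroblasts cannot be told apart between the pairs.

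Trim12a, Tescl and Ctse stood apart on both arrays with the label, and some of the 12 highest genes did not. Fnbp1l, 8.25-fold higher without fibroblasts, read -3.52 under the label there and -2.77 in the Pla2g3+/+ coculture. In coculture its difference was within 2-fold (0.73), as were those of Gm3667 (0.27), Gm3752 (0.23) and ENSMUST00000165619.7 (0.16). Trim12a read 0.72 under the label in coculture and -7.74 to -6.66 on the 3 wild-type cocultures. Tescl read -1.22 against -7.52 to -7.15, and Ctse read 4.23 against -0.93 to 0.21. Both arrays with the label lay above all 4 arrays of wild-type mast cells in 421 of the compared genes (1.93%) and in 34 of the 91 higher ones. The gap between the lower labelled array and the highest wild-type array was widest for Trim12a (7.38 on the log2 scale), Tescl (5.69), Trim5 (4.44), Ctse (3.66), 4930557J02Rik (3.37) and Pla2g3 (3.01). Both arrays with the label lay below all 4 wild-type arrays in 888 genes (4.08%) and in 148 of the 341 lower ones. The pair without fibroblasts is part of both the count of called genes and this order, so the shares among called genes are a description.

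The granulocyte genes divided in coculture. Prg2 read -7.52 in the Pla2g3+/+ coculture and was not well above background under the label, and Ear2, Ear7 and Epx were not well above background on any coculture array. Camp read -3.36 and -3.93, within 2-fold, while S100a8 (4.15-fold), Stfa1 (8.53-fold) and Pf4 (7.40-fold) were lower there too. Of 7 eosinophil genes compared in coculture 1 was lower and 1 higher (median -0.41), and of 25 neutrophil genes 10 were lower and 3 higher (median -0.62). Over all genes compared in both pairs, 9.85% were lower and 9.45% higher in coculture. The eosinophil counts and the 3 higher neutrophil genes are near those shares. Among macrophage genes 11 of 24 were lower in coculture and 3 higher, the latter near the share over all genes. Mrc1 was at least 52.5-fold and Mpeg1 11.9-fold lower. Tpsab1 differed by -3.60 on the log2 scale in coculture, and Tpsg1 was 7.52-fold and Mcpt8 3.94-fold lower, the direction they had without fibroblasts. Under the label these 3 genes read 0.61, 0.03 and -0.06 in coculture. Wild-type mast cells on Lpar1-/- fibroblasts read -0.17, -0.31 and 0.21, so such levels were not particular to the label. Mrc1 read -7.60 and Mpeg1 -3.83 on that array, against -2.38 and -2.41 in the Pla2g3+/+ coculture.

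**Figure D3:**
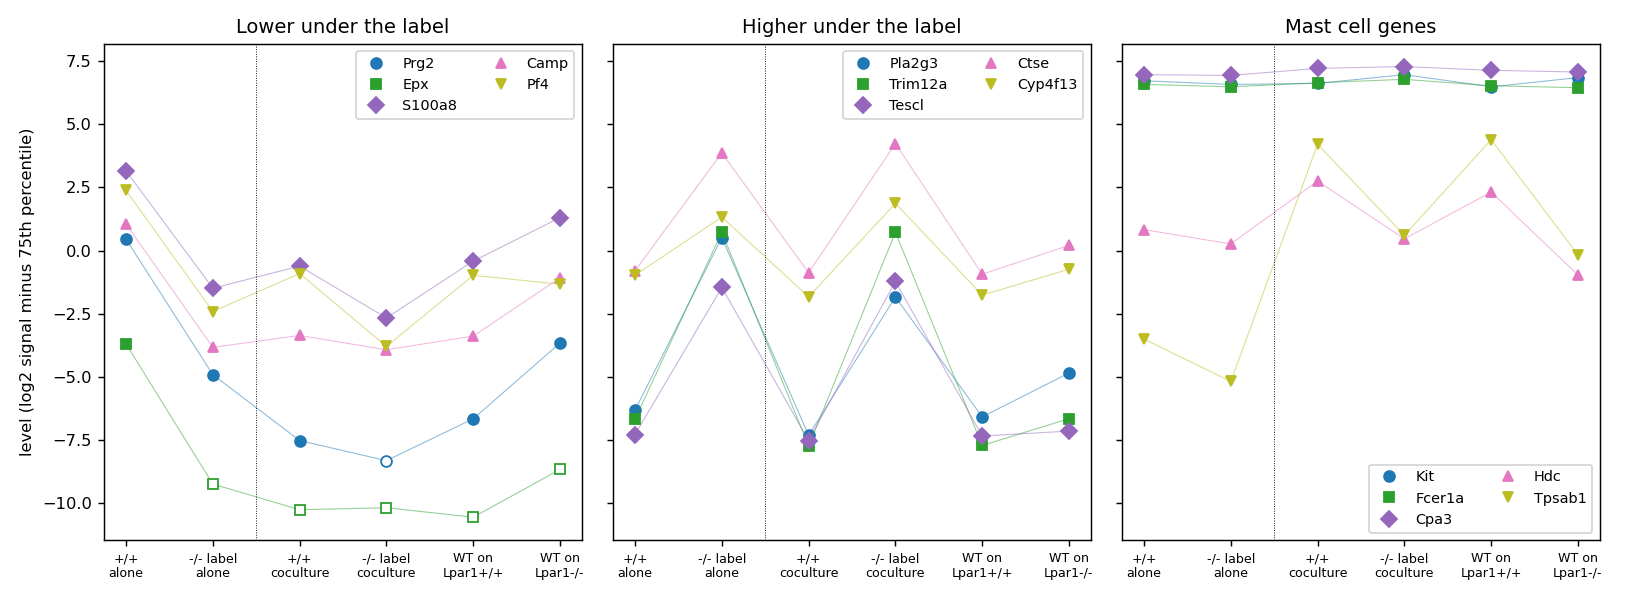
Levels of 15 genes on all 6 arrays (horizontal axis), as log2 signal minus the 75th percentile (vertical axis). Filled points were well above background and open points were not, and the dotted line separates arrays without fibroblasts from cocultures. Prg2, Epx, S100a8, Camp and Pf4 are highest on the Pla2g3+/+ array without fibroblasts, and Pla2g3, Trim12a, Tescl, Ctse and Cyp4f13 are highest on the arrays with the Pla2g3-/- label. Lines join the values of 1 gene and have no meaning of order.

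The position of the differences was examined on the mm9 coordinates of the probes. Within 1 Mb of the Pla2g3 probes 41 other genes were compared and 0 passed 2-fold, with differences from -0.82 (Sec14l2) to 0.52 and a median of 0.04. The neighbours Smtn (0.19), Selenom (0.13), Rnf185 (-0.01), Osm (0.24) and Lif (0.12) were among them. Within 10 Mb 115 genes were compared, of which 2 were higher and 3 lower. Nipsnap1 (2.32-fold) and Emid1 (2.17-fold) were higher, and Camk2b, a calmodulin-dependent kinase gene (11.8-fold), Upp1 (2.12-fold) and Ccdc117 (2.04-fold) were lower. These shares, 1.74% and 2.61%, stand beside 0.418% and 1.57% over all compared genes, and the counts are small. A count of 0 among the 41 genes within 1 Mb is likewise near the shares over all compared genes.

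**Figure D4:**
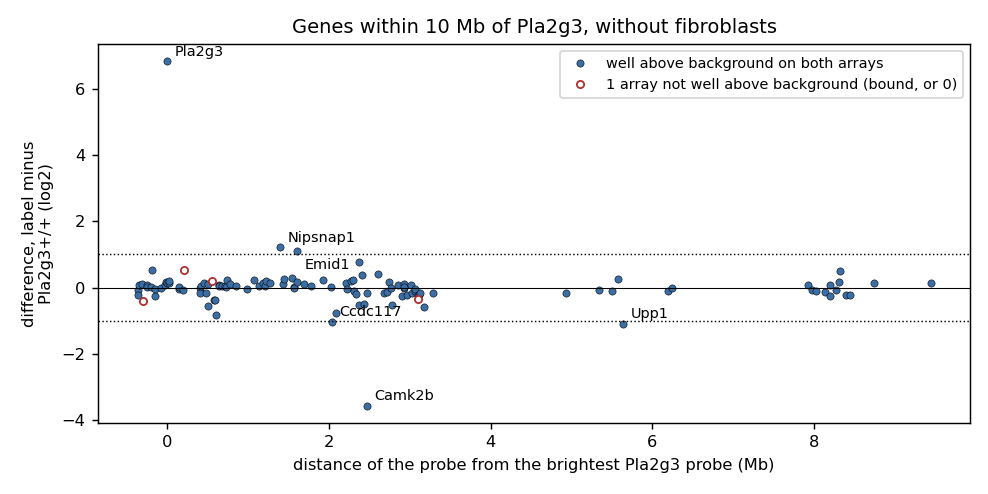
Differences of the genes within 10 Mb of Pla2g3 without fibroblasts (vertical axis, log2, array labelled Pla2g3-/- minus Pla2g3+/+) by the distance of their probe from the brightest Pla2g3 probe (horizontal axis, Mb). Open points are bounds, or 0 where no bound could be given. Pla2g3 stands at 6.82, and of the genes within 1 Mb of it 0 passed the dotted 2-fold lines.

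Genes past 2-fold in the same direction were joined into runs where their probes lay at most 1 Mb apart. How often any compared genes would form such runs was not computed, so the counts of runs are a description only. The 91 higher genes held 14 such runs with 31 genes. Ctse was joined by Rab7b (3.28-fold higher), Ramp1 by Rab17 (3.41-fold), Trim12a by Trim5 and the embryonic globin gene Hbb-y (2.50-fold), Cyp4f13 by Cyp4f17, and Ppm1n by Rtn2 (at least 2.63-fold) and Igsf23 (2.08-fold). In that order, the spans of these runs held 2 of 2, 2 of 4, 3 of 8, 2 of 9 and 3 of 32 compared genes past 2-fold higher. Gm3667 and Gm3752 lay in a run on chromosome 14 with 3 of 6 compared genes higher. The span of Ppm1n overlapped a run of lower genes, 7 of 48 compared. Rab7b was within 2-fold in coculture (-3.48 and -3.45), whereas Rab17 and Ramp1 were higher there too. The 341 lower genes held 56 runs with 162 genes. The stefin and cystatin cluster on chromosome 16 was lower in 9 of 10 compared genes between 36136075 and 36604020. Ear1, Ear10, Ear12 and Ear2 were 4 of 7 genes in their cluster on chromosome 14, Prg2 and Prg3 the pair on chromosome 2, and Camp, Ngp and Ltf 3 of 33 on chromosome 9. By chromosome, the share of lower genes was 3.37% on chromosome 16, which holds the stefin cluster, against 1.57% over all compared genes. The share of higher genes was 1.19% on the X chromosome, with 10 of 837, against 0.418% over all. It was 1.02% on chromosome 14 and 0.846% on chromosome 12, and these shares were not tested. Members of a family cluster can share sequence, so such runs can count 1 signal more than once. Xist, a transcript of the inactive X chromosome in females, read 1.78 and 1.91, and the Y-linked genes Ddx3y, Kdm5d, Eif2s3y and Uty were not well above background on either array.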

How the data were processed

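RNA of 6 groups of mouse mast cells, 1 array each, was hybridised in a single colour (Cy3), per the labels. Per the file headers, the authors measured the intensity of every spot with Feature Extraction 12.1.1.1 (Agilent), subtracted background and replaced dim values by a surrogate. The value table deposited by the authors holds a linear signal equal to that intensity over 1 constant per array (1268.76 and 1230.44 for the arrays without fibroblasts, within 0.1% for 100% of spots, column medians 0.0401 and 0.0380). Its scale is therefore known, and no centring was found. The labels do not say whether cells without fibroblasts were given stem cell factor or were sorted.

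From these, log2 intensity minus the 75th percentile over 43020 noncontrol spots was computed. Outlier spots (107 and 113) were dropped, no spot was saturated, and spots of 1 probe were averaged, leaving 39428 of 39429 probes. Accessions named 33415 spots through the RefSeq table of GRCm38.p6, symbols 2737, synonyms 13, and 6855 kept the file's name. The probe brightest over both arrays stood for a gene. A gene dim on 1 array has a bound, written "at least N-fold". The dim side was set to the faintest probe called well above background there, or to the gene's own signal if that was brighter, and 2-fold was asked of the bound itself. A gene was not above background only if all its probes were not. No mm9 annotation was used, so exons and untranslated regions are not stated. The number of arrays limits all precision, and pooled cultures leave no spread.

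The genes named were drawn from Pla2g3, the 12 highest and 12 lowest genes measured on both arrays, 4 bounds per direction, up to 4 genes per direction and list, fixed mast cell genes, the phospholipase A2 list and genes within 1 Mb of Pla2g3. Further list members and neighbours were named after their values were seen. Members, the 28 gene lists and rules were chosen with earlier results of these data known. Alternatives were normexp (offset 50, limma 3.58.1), quantile normalization, another percentile, other filters, probe rules and thresholds, and the deposited table. Scripts (Python 3.11.15, R 4.3.3) were tested on simulated data. Of the integrin and adhesion list, 1 result is not reported here.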

Additional observations from a re-analysis of the deposited data

Results flagged for a closer look

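Fos and Cd24a were past 2-fold in opposite directions without fibroblasts and in coculture. Fos, an immediate early gene, differed by 1.37 without fibroblasts and -1.43 in coculture on the log2 scale, a change of -2.80. Cd24a, which encodes a surface glycoprotein of many blood cells, differed by -1.53 without fibroblasts and 3.73 in coculture, a change of 5.26. Its level was 3.57 on the Pla2g3+/+ array and 2.04 under the label without fibroblasts, and -3.52 and 0.22 in coculture. Fos read -0.99 for Pla2g3+/+ and -2.42 under the label in coculture. Wild-type mast cells on Lpar1-/- fibroblasts read 1.945 for Cd24a and -2.36 for Fos. A higher Cd24a and a lower Fos in coculture were thus not particular to the label. With 1 array on each side neither difference between the pairs was tested.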

How the results depend on the processing

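The counts of higher and lower genes moved with the treatment of dim probes. The 91 higher genes became 23 with normexp, 633 with no filter on dim probes, 51 with both arrays well above background, and 189 with the measured difference in place of the bound, a setting chosen after seeing the data. The 341 lower genes became 94 with normexp (93 of them among the 341), 863 with no filter and 460 with the measured difference. At 1.5-fold 428 genes were higher and 871 lower, and at 4-fold 17 and 123. Quantile normalization (108 and 309), the percentile over detected probes (83 and 361), the mean of probes (95 and 348), outlier spots kept (91 and 340) and the deposited table (91 and 341) stayed within 1.5 times. The eosinophil median was -1.30 with normexp and -2.62 with both arrays well above background, and the neutrophil median -2.28 with normexp. Of 70 genes followed singly, 21 were no longer past 2-fold with normexp and 2 with quantile normalization, and 0 reversed. With both arrays well above background 57 of them had a value. Among the genes lost were Trim5, Tpsab1 (-0.86), Tpsg1, Pla2g10, Fbxo41, Irf8 and Cebpa. Normexp adds a constant to all signals, which draws dim probes together, and its part was not tested further. Low signal limits the bounds: 40 of 91 higher and 85 of 341 lower genes had 1 array not well above background. No paired analysis was possible because each group had 1 array.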
